A study of Mus musculus with 96 samples.

Results

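The 32 genes described here act in mitosis, and their transcripts were followed in mouse liver with and without phenobarbital and through 8 ways of keeping the tissue. They were taken by Ensembl identifier from the deposited gene counts, and 32 of 32 were found among the 47373 genes of the table. They comprise 8 mitotic kinases (Cdk1, Plk1, Aurka, Aurkb, Bub1, Bub1b, Ttk and Melk) and 5 cyclins and ubiquitin ligase activators (Ccna2, Ccnb1, Ccnb2, Cdc20 and Ube2c). There are 3 genes of chromosome structure (Mki67, Top2a and Ncapg), 3 of the centromere and kinetochore (Birc5, Cenpe and Cenpf) and 5 of the spindle (Kif11, Tpx2, Nusap1, Hmmr and Spag5). The remaining genes are 7 of the spindle midzone and cytokinesis (Kif4, Kif20a, Kif23, Prc1, Racgap1, Ect2 and Anln) and the transcription factor Foxm1.

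Livers came from 12 male B6C3F1 mice, a hybrid strain used in toxicology, aged 10 to 11 weeks. Phenobarbital is a sedative that switches on hepatic drug metabolism through CAR, a nuclear receptor. It was given at 600 ppm in the drinking water for 7 days to the 6 animals called PB (18B, 18D, 20B, 20D, 75C and 80B). The 6 animals called Con (8A, 8C, 8D, 21C, 82B and 90C) received 0 ppm. Tissue of mixed liver lobes from every animal entered each of the 8 states, so each of the 16 groups held 6 libraries. FR portions were frozen. OH portions spent 3 months in 70% ethanol, 18F portions spent 18 hours in formalin and then stayed in 70% ethanol until 3 months, and 3F portions spent 3 months in formalin, each before paraffin embedding. The other 4 states started from the 3-month formalin material. TAE libraries came from 3F RNA kept in warm Tris-acetate-EDTA buffer (70 °C, 30 minutes). For HeatAllPrep the tissue was heated for 18 hours at 55 °C without catalyst and extracted with an AllPrep kit. For CatAllPrep and CatPureLink the same heating was done with an organocatalyst, and RNA was extracted with an AllPrep or a PureLink kit. The design puts PB against Con inside each state, and each preserved state against the frozen portions of the same animals.

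Most hepatocytes of an adult liver rest outside the cell cycle, and a drug of the phenobarbital type can move some of them into it. Transcripts of genes such as these rise in G2 and mitosis and fall as a cell leaves division. In this program CDK1 with cyclin B starts mitosis, PLK1 and the Aurora kinases build the spindle, BUB1, BUBR1 (Bub1b) and TTK hold the spindle checkpoint, CDC20 then directs the anaphase-promoting complex to its substrates, and PRC1, kinesins, RACGAP1, ECT2 and anillin carry out cytokinesis. In bulk tissue a higher share of dividing cells and more RNA in each such cell cannot be told apart.

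Many G2 and mitosis genes are bound by the DREAM and MuvB complexes, which use a cell-cycle homology region (CHR) with the letters TTTGAA or TTCGAA, and by NF-Y, which uses CCAAT boxes. Windows of 300 bases around RefSeq transcript starts (GRCm38.p6, 250 bases before and 50 after) were present for 27 of the 32 genes. With both strands searched, 22 of the 27 genes (81.5%) held TTTGAA or TTCGAA in at least 1 window, against 21.7% of the 27025 genes of the promoter table. A CCAAT box stood in 23 (85.2%, against 41.1%), both letter groups stood together in 21 (77.8%, against 9.65%), and at least 2 CCAAT boxes stood in 15 (55.6%, against 13.3%). Among other mitotic genes, a list of 72, 59 had a window and 64.4% of those held a CHR match, whereas it was 14.3% of 14 core subunits of the anaphase-promoting complex and 23.1% of 13 genes of the G1 cell-cycle list. A match says that the letters are there and is not evidence of binding. The upstream sequences of 4 genes are printed: of the members with a CHR match that passed the count filter in frozen liver, these had the largest PB differences. Each runs 5′ to 3′ toward the start on the gene's own strand, with the letters of CCAAT boxes and of CHR matches in capitals. A box on the other strand reads ATTGG.
Hmmr: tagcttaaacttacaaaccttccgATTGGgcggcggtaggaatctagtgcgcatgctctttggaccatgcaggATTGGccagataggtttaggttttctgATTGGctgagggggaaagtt
Cdc20: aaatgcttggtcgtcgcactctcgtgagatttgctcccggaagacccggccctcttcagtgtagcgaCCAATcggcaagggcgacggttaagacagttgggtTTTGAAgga
Cenpf: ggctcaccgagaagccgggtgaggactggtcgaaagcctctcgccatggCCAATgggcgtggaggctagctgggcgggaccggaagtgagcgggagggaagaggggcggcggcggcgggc
Prc1: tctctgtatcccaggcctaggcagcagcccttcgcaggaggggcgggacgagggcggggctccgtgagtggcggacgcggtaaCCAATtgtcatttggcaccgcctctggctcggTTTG
The Hmmr stretch is chr11:40733438-40733557 on the minus strand, and its CHR match starts 9 bases past the RefSeq start and is not printed. The Cdc20 stretch is chr4:118437353-118437463 on the minus strand, with TTTGAA 18 bases before the RefSeq start. The last 9 bases before that start lie inside the annotated gene and are not printed, and a second CCAAT box, 8 bases before the start, falls there. The Cenpf stretch is chr1:189688087-189688206 on the minus strand, with its CHR match at base 3 after the start. The Prc1 stretch is chr7:80294331-80294449 on the plus strand, and its TTTGAA crosses the annotated gene start, so that only its first letters are printed.

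In frozen liver the mitotic genes were higher in the PB animals. The quasi-likelihood test of edgeR, with Benjamini-Hochberg adjustment over all genes tested and a threshold of 0.05, called 28 of the 28 genes that passed its low-count filter higher and 0 lower. Of all 13929 genes tested, 5.89% were called higher. The filter asks for enough counts in 6 libraries, so a member scarce in Con can pass through its PB libraries alone. The 28 are thus not chosen independently of the PB level. Without a filter 32 of 32 were called higher, against 3.24% of all genes with a count. The median log2 fold change (PB over Con) of the 28 genes was 2.41, and that of all genes tested was -0.01. The groups did not overlap for 25 of the 32 genes, that is, every PB library lay above every Con library, which held for 2.13% of genes with a count. The groups overlapped for Ccnb2, Birc5, Kif11, Kif23, Nusap1, Anln and Racgap1.

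**Figure D1:**
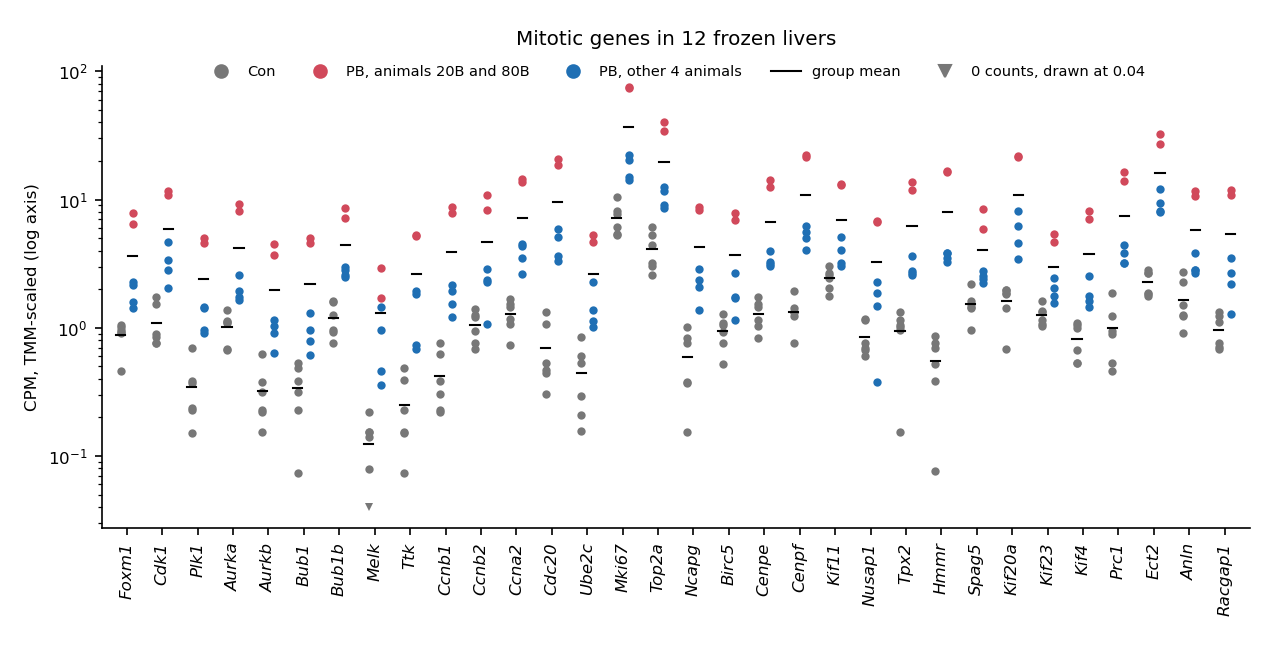
CPM (library-scaled counts with TMM factors, log axis) of the 32 genes in the 12 frozen libraries, ordered by role, with a point for each library and a black bar for each group mean. Animals 20B and 80B (red) stand above the other 4 PB animals (blue) for every gene shown, and a Melk library with 0 counts is drawn as a triangle.

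Mki67 (chr7:135689784-135716361, GRCm38), which encodes the proliferation antigen Ki-67 that coats mitotic chromosomes, had the most counts of the 32. Its lowest, median and highest levels were 5.33, 6.90 and 10.4 CPM in the frozen Con libraries and 14.2, 21.3 and 75.6 CPM in the frozen PB libraries. The lowest PB library thus lay above the highest Con library, and 2 PB libraries, those of 20B at 75.6 and 80B at 73.8 CPM, stood far above the others, which reached 22.3 CPM. Its log2 fold change was 2.36 ± 0.46 (SE, n = 6 against 6, adjusted p = 0.00563). Top2a, the topoisomerase that untangles sister chromatids, rose from 4.12 ± 1.41 to 19.5 ± 14.2 CPM (mean ± SD, n = 6). Ncapg, a condensin subunit, rose from 0.59 ± 0.34 to 4.30 ± 3.34 CPM.

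Cdc20 (chr4:118432901-118437352) had Con levels of 0.303, 0.503 and 1.33 CPM (lowest, median and highest) and PB levels of 3.34, 5.53 and 20.6 CPM. The groups were apart by more than the whole Con range. Its log2 fold change was 3.76 ± 0.58 (SE, adjusted p = 0.00123). Ccnb1 (chr13:100778650-100786570), which encodes cyclin B1, ran through 0.222, 0.343 and 0.768 CPM in Con and 1.21, 2.05 and 8.80 CPM in PB libraries, again without overlap. Its log2 fold change was 3.19 ± 0.61 (adjusted p = 0.00511). Among the other cyclins and activators, Ccnb2, Ccna2 and Ube2c, the enzyme that hands ubiquitin to the anaphase-promoting complex, rose by log2 fold changes of 2.15, 2.497 and 2.57.

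Among the kinases, Plk1 (chr7:122159439-122169873) had 0.151, 0.303 and 0.698 CPM in Con and 0.914, 1.43 and 5.01 CPM in PB libraries. Its groups did not overlap, and its log2 fold change was 2.76 ± 0.55 (adjusted p = 0.00678). Cdk1, Aurka and Bub1b passed the filter and rose by 2.44, 2.05 and 1.91 on the log2 scale. The other 4 kinases, Aurkb, Bub1, Melk and Ttk, did not pass the filter in frozen liver. Without it they were called higher, at log2 fold changes of 2.61 (Aurkb), 2.71 (Bub1), 3.32 (Melk) and 3.38 (Ttk).

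The lowest mean levels among the 32 were those of Melk and Aurkb. Melk, a kinase found in dividing cells, had 10 counts over the 6 frozen Con libraries and 114 over the 6 frozen PB libraries. In CPM its lowest, median and highest values were 0, 0.146 and 0.222 in Con and 0.356, 1.204 and 2.91 in PB libraries. Aurkb, the kinase of the chromosomal passenger complex, had 0.153, 0.272 and 0.628 CPM in Con and 0.640, 1.10 and 4.47 CPM in PB libraries. For both genes the groups did not overlap, although the gap for Aurkb was narrow. Adjusted p without the filter was 0.00188 for Melk and 0.00588 for Aurkb.

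Hmmr (chr11:40701395-40733422), a spindle and hyaluronan-binding protein, had the largest frozen log2 fold change of the 28 tested, 3.84 ± 0.60 (adjusted p = 0.00132). Its Con levels were 0.0757, 0.605 and 0.863 CPM and its PB levels 3.27, 3.84 and 16.8 CPM. No Con library came near the lowest PB library. The other spindle genes were Tpx2, a microtubule-nucleating partner of Aurora A, with a log2 fold change of 2.72, the spindle-binding Nusap1 with 1.96, the spindle motor Kif11 with 1.51 and Spag5 (astrin) with 1.40. Nusap1 carried the highest adjusted p of the 28, 0.0395, and 1 PB library at 0.381 CPM lay under every Con library.

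Kif23, the kinesin of the centralspindlin complex, had the smallest difference, with a log2 fold change of 1.24 ± 0.32 (adjusted p = 0.0257). Its levels were 1.04, 1.24 and 1.61 CPM in Con and 1.56, 2.26 and 5.38 CPM in PB libraries, and the ranges overlapped. Racgap1, which encodes its partner in that complex, rose by 2.47, and Ect2, the exchange factor that the complex recruits to activate RhoA, by 2.84 on the log2 scale. Ect2 had the smallest adjusted p of the members, 0.000475. Prc1, the microtubule bundler of the midzone, rose by 2.91, the midzone kinesin genes Kif20a and Kif4 by 2.75 and 2.21 and the cleavage furrow scaffold Anln by 1.80.

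Of the centromere and kinetochore genes, Cenpf rose by 3.01, the kinesin Cenpe by 2.38 and Birc5 (survivin, of the chromosomal passenger complex) by 1.97 on the log2 scale. Foxm1, a transcription factor that acts on many genes of this program, rose from 0.886 ± 0.216 to 3.64 ± 2.79 CPM (log2 fold change 2.04 ± 0.46, adjusted p = 0.0135). Divided by exon length, the highest of the 32 in frozen Con liver were Mki67 at 0.713 ± 0.196 and Ccnb2 at 0.682 ± 0.187 CPM per kilobase (mean ± SD, n = 6), with Mki67 the higher in 4 of 6 animals. In frozen PB liver Cdc20 stood first at 5.11 ± 4.22 CPM per kilobase and Mki67 second at 3.67 ± 2.93. The SDs overlap widely, but in the same library Cdc20 was the higher in 6 of 6 PB animals. Cdc20 had been the seventh of the 32 in Con liver, at 0.371 ± 0.219.

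The spread between treated animals was wide and the same animals made it in every state. In frozen liver the CPM of the 32 genes summed to 444 in 20B and 426 in 80B. The other 4 PB animals had 134.5 (20D), 123 (18D), 96.2 (18B) and 93.8 (75C). The Con animals ran from 29.5 (8D) to 54.2 (8C). The mean ± SD was 219.5 ± 167.6 in PB and 40.8 ± 8.93 in Con (n = 6 each), a ratio of 5.39. Leaving out 20B and 80B brought the ratio to 2.75. Over the 8 states the ratio of means ran from 4.18 (3F) to 5.45 (CatAllPrep), and without these 2 animals from 2.35 (3F) to 2.97 (CatAllPrep). PB and Con sums did not overlap in any of the 8 states.

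**Figure D2:**
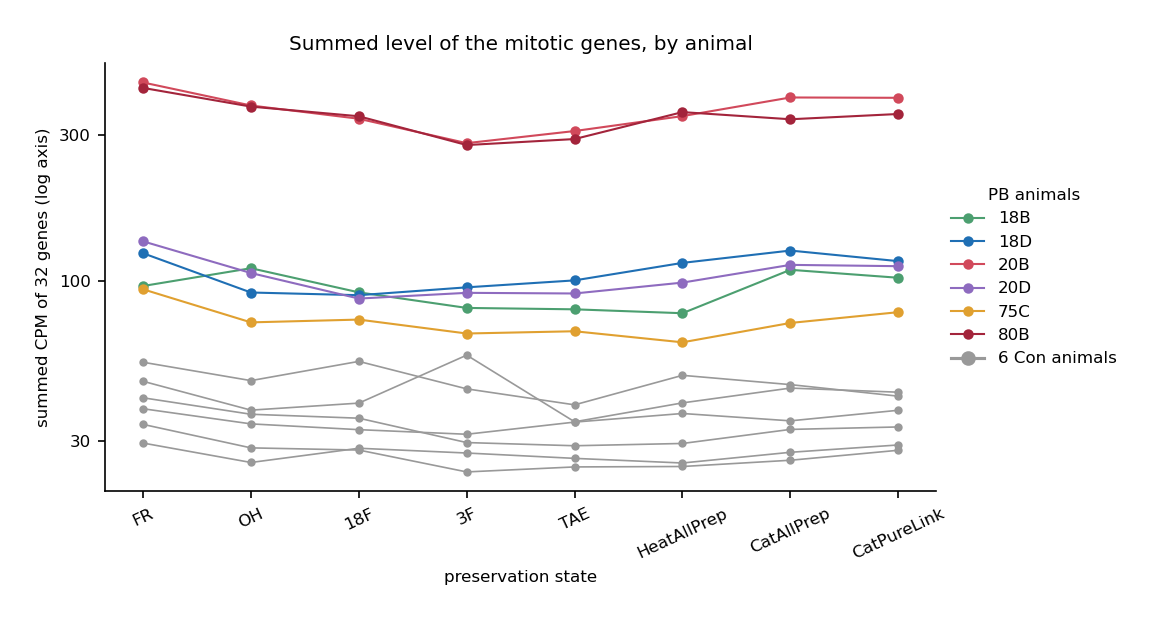
Summed CPM of the 32 genes (log axis) for each animal through the 8 preservation states, with a line for each of the 6 PB animals in colour and the 6 Con animals in grey. The lines of 20B and 80B run together at the top in every state, from 277 to 444, 75C is the lowest PB animal in every state, and the Con animals stay between 23.8 and 57.2.

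Animals 20B and 80B were the highest pair of the 6 PB animals in 254 of 256 combinations of gene and state, and in 8 of 8 states for 30 of the 32 genes. The SD of the animal means of the log2 sum was 1.00 among PB animals and 0.324 among Con animals. The SD of the state means of the same log2 sum was 0.165 in PB and 0.103 in Con, and the residual SD was 0.119 and 0.134. Differences between treated animals were thus several times those between states. For each gene, averaged over states, the coefficient of variation among PB animals was larger than among Con animals in 32 of 32 genes, with medians of 75.1% and 27.3%. It reached 88.8% in PB and 54.3% in Con. In 32 of 32 genes the highest PB animal was 20B or 80B, so the genes are not separate observations of this spread. The same count over all genes was not made.

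Without 20B and 80B, 21 of 28 genes were still called higher in frozen liver, against 3.21% of all genes tested. The 7 that were not are Ccnb2, Birc5, Kif11, Kif23, Nusap1, Anln and Spag5. The median log2 fold change of the members in that fit was 1.35. Cdc20 and Hmmr then had log2 fold changes of 2.67 and 2.69, with adjusted p of 0.000503 and 0.000324. These 2 animals were picked out after their levels were seen, so no test compared them with the rest.

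The 2 high animals also stood apart in some other transcripts. The summed CPM of Cyp2b10, Cyp2c55 and Cyp3a11, cytochrome P450 genes that phenobarbital induces, was 16390 in 20B and 15560 in 80B in frozen liver. It ran from 8412 to 11820 in the other 4 PB animals and from 34.3 to 284 in Con. The 6 markers of Kupffer cells and macrophages (none at 0) summed to 601 CPM in 20B and 496 in 80B. Their sum was 254 to 395 in the other PB animals and 218 to 415 in Con. The 7 leukocyte markers summed to 57.7 and 51.4, against 31.9 to 49.0 in the other PB and 27.0 to 50.04 in Con animals. Most of that was Ptprc, at 52.9 and 47.8 CPM. Cd4 was low, at 2.57 and 1.39 CPM, against 2.24 to 6.015 in the other PB and 2.96 to 8.02 in Con animals. The sum of the 6 hepatocyte markers, most of it Alb, did not set the 2 animals apart. It was 42930 in 20B and 48620 in 80B, 42930 (75C) to 71140 in the other PB animals and 62920 to 87510 in Con. Single markers differed: Apoa1 (5766 and 6124 CPM), Ttr (3114 and 3517) and Tat (624 and 655) were lower in 20B and 80B than in every other animal. Alb, Hnf4a and Serpina1a did not single them out. The erythroid markers summed to 275 and 235 CPM in 20B and 80B, below the 391 to 494 of the other PB animals and the 288 of the lowest Con animal. The 5 cholangiocyte markers summed to 101 CPM in 20B and 137 in 80B, against 33.0 to 58.4 in the other PB and 36.4 to 137 in Con animals. Most of that was Spp1, at 91.9 and 131 CPM. Sox9 stood at 6.295 and 3.55 CPM, against 3.11 to 10.05 in the other PB animals. The endothelial markers summed to 509 in 20B and 452 in 80B, within the 399 to 540 of the other PB animals. Among them Lyve1 was highest in 20B and 80B, at 27.2 and 22.2 CPM, against 11.8 to 17.6 in the other PB animals. The stellate cell and fibroblast markers summed to 450 to 671 CPM in PB and 428 to 572 in Con. Of the 6 hepatocyte markers 2 were called lower in PB, Tat and Hnf4a, which fell by 0.60 and 0.25 on the log2 scale, while Alb at -0.54 (adjusted p = 0.0572) and Apoa1 at -0.25 (adjusted p = 0.0761) were not called. Of the 6 stellate cell and fibroblast markers Col3a1, a collagen gene, rose by 0.71, while Reln at -0.03 (adjusted p = 0.937) and Dcn at 0.10 (adjusted p = 0.486) were not called. Without 20B and 80B none of these 12 markers was called. The part of these differences in the levels of the mitotic genes was not tested.

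In the preserved states the direction was the same. In 256 of 256 combinations of gene and state the log2 fold change without a filter was above 0, from 0.86 (Kif23 in OH) to 4.49 (Hmmr in HeatAllPrep). Of the 205 combinations that passed the filter 182 were called higher (3.52% over all genes), and of all 256 without a filter 225 (1.94%). None was called lower. The genes called in each of the 8 states numbered 11 (1.22% of all genes tested in 8 of 8 states), namely Mki67, Top2a, Ccnb1, Cdc20, Cenpf, Tpx2, Prc1, Ect2, Racgap1, Foxm1 and Hmmr. These were 11 of the 18 that passed the filter in all 8. Without a filter 19 of 32 were called in 8 of 8 states (0.943% of all genes).

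**Figure D3:**
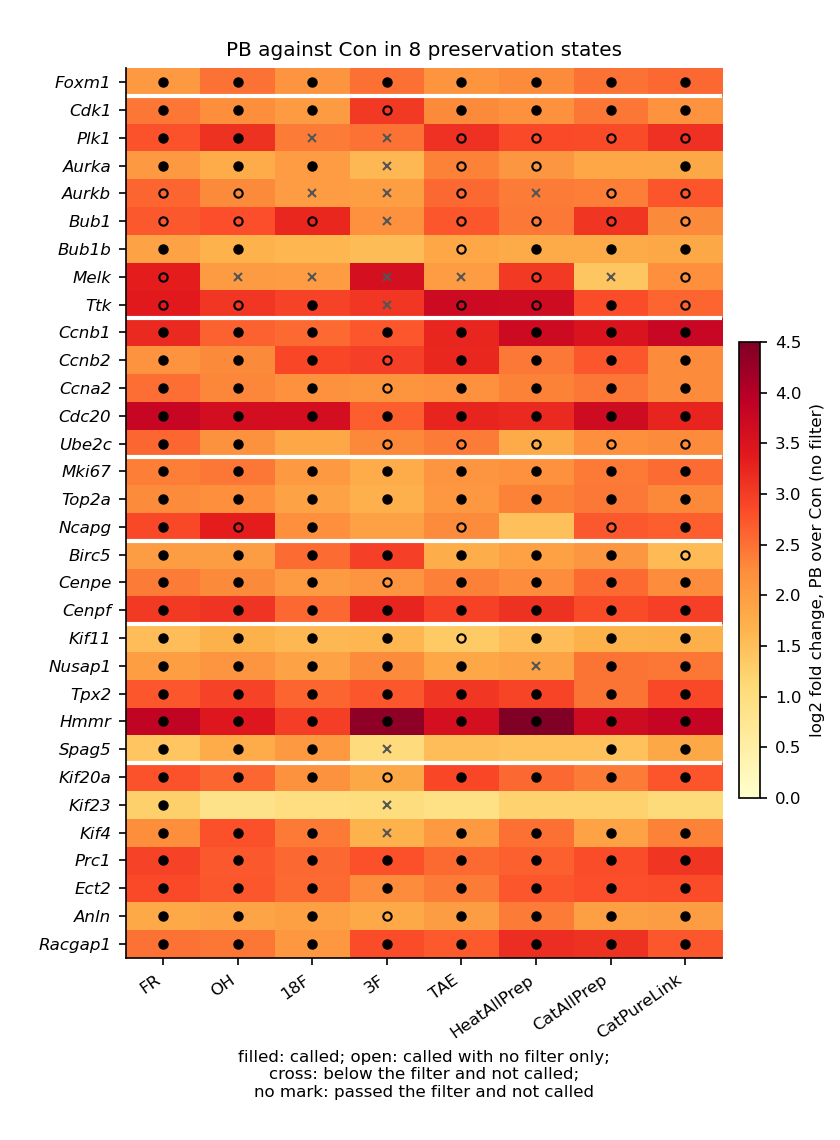
Log2 fold change of PB over Con for the 32 genes (lines, grouped by role with white gaps) in the 8 states (columns), from the fit without a filter, with marks for the calls at an adjusted p of 0.05. Every cell is above 0, Hmmr and Cdc20 are the darkest lines, Kif23 is the palest, and crosses, which mark genes below the filter and not called, are most frequent in 3F.

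After ethanol (OH), 26 of 27 tested genes were called higher (4.82% of all genes tested), with Kif23 left over. Without a filter it was 30 of 32 (2.32%), and without 20B and 80B 21 of 27 (2.67%). Every PB library lay above every Con library for 23 genes (1.93% of genes with a count). After 18 hours of formalin (18F), 25 of 28 were called (3.45%), without a filter 26 of 32 (1.88%), and without 20B and 80B 13 of 28 (1.86%). Bub1b, Kif23 and Ube2c passed the filter in 18F and were not called. The groups did not overlap for 20 genes (1.51%). Leaving out either 20B or 80B alone brought the 18F count to 15 or 14, and without Con animal 8D or 82B it was 16.

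Formalin for 3 months (3F) gave the fewest calls. Of the 21 genes that passed the filter 14 were called higher (1.66% of all genes tested). Of 32 without a filter it was 21 (1.09%). Without 20B and 80B 5 of 22 were called (0.907%), and these were Cdc20, Birc5, Tpx2, Racgap1 and Hmmr. With either of the 2 animals left out alone, 9 were called. The groups did not overlap for 10 genes (0.856%). The genes that passed the filter in 3F without a call were Ccna2, Bub1b, Kif20a, Cenpe, Anln, Ube2c and Ncapg. The median log2 fold change in 3F was 2.28, against 2.41 in frozen liver.

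The levels behind these 3F calls were lower in counts than in frozen liver. Hmmr had 18 counts over the Con and 435 over the PB libraries, and its CPM (lowest, median and highest) was 0, 0.326 and 1.022 in Con and 3.01, 4.38 and 21.5 in PB. Its groups stayed apart, with a log2 fold change of 4.37 ± 0.68 (adjusted p = 0.00158). Cdc20 had 21 and 153 counts, with 0, 0.437 and 0.804 CPM in Con and 1.504, 2.71 and 5.34 CPM in PB. It too stayed apart, at 2.66 ± 0.45 (adjusted p = 0.00329). Mki67 had 3.22, 5.74 and 12.4 CPM in Con and 9.91, 14.6 and 36.0 CPM in PB, and the highest Con library lay above the lowest PB library. That Con library was 8A, the shallowest of all, with 15 counts of Mki67. The other Con libraries reached 9.31 CPM (8C), below every PB library. The log2 fold change of Mki67 was 1.78 ± 0.40 (adjusted p = 0.0238), and 1.08 (adjusted p = 0.173) without 20B and 80B. Ccnb1 had a log2 fold change of 2.73 (adjusted p = 0.0157), which became 1.75 (adjusted p = 0.132) without these 2 animals.

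In TAE, 20 of 24 genes were called higher (2.35%), 29 of 32 without a filter (1.42%) and 15 of 24 without 20B and 80B (1.57%). The groups were apart for 20 genes (1.17%). In HeatAllPrep it was 21 of 25 (3.53%), 27 of 32 without a filter (1.90%) and 14 of 24 without the 2 animals (2.13%). The groups were apart for 16 genes (1.11%). Both of the tissue treatments with organocatalyst gave 24 calls among 26 tested. In CatAllPrep that compared with 3.12% of all genes, with 29 of 32 (1.81%) called without a filter, 19 of 26 (2.36%) without 20B and 80B, and 18 genes without overlap (1.36%). In CatPureLink it compared with 3.21%, with 31 of 32 (1.80%), 21 of 26 (1.83%) and 26 genes without overlap (1.23%). Aurka and Kif23 were the uncalled genes of CatAllPrep and Birc5 and Kif23 those of CatPureLink.

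Some members kept apart from the rest through all the states. Cdc20, Hmmr, Tpx2 and Ect2 had no overlap of PB and Con in 8 of 8 states. In a single state this held for 0.856% (3F) to 2.13% (FR) of genes with a count. The share of all genes without overlap in 8 of 8 states was not counted, and the states hold portions of the same animals. Cdc20 had log2 fold changes from 2.66 (3F) to 3.78 (FR), and Hmmr from 2.98 (18F) to 4.49 (HeatAllPrep), without a filter. Kif23 overlapped in 8 of 8 states, was called in FR alone and ranged from 0.86 to 1.26. In OH its log2 fold change of 0.87 (adjusted p = 0.353) turned to -0.31 (adjusted p = 0.711) without 20B and 80B. Melk, Aurkb and Bub1 passed the filter in no state and were called without it in 3, 5 and 7 states. Plk1 passed the filter in FR and OH and was called in both.

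No difference in the PB response between a preserved state and frozen liver was detected for any of the 32 genes. In 7 interaction fits edgeR called 0 members, 0% of all genes in each, and 0 members had an unadjusted p under 0.05. With the animal as a replicate block the members called were also 0 in 7 of 7 fits, with 0 (OH and CatPureLink) to 6 (18F) at an unadjusted p under 0.05. Of all genes tested, the blocked fits called 9 of 14717 in HeatAllPrep and 0 in the other states. In the fits without the block, the smallest p of the members belonged to Melk in CatAllPrep and Ncapg in HeatAllPrep. The log2 difference in response from frozen liver was -1.90 ± 0.99 (SE, edgeR adjusted p = 1) for Melk and -1.37 ± 0.83 (adjusted p = 0.999) for Ncapg. With the block the same genes led, with smaller errors: Ncapg was at -1.48 ± 0.35 (adjusted p = 0.113) and Melk at -1.86 ± 0.65 (adjusted p = 0.362).

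Against frozen liver of the same animals, most of the 32 genes had lower CPM in the preserved states. Because each animal gave a library to both sides, the counts with the animal as a replicate block stand beside those of the fit with treatment alone. In OH the plain fit called 0 of 32 lower (16.6% of all genes were), and at an unadjusted p under 0.05 it was also 0. The blocked fit called 12 lower and 0 higher (27.9% and 23.6% of all genes). In 18F the plain fit called 1 lower, Spag5 (19.5%), and the blocked fit 16 lower and 0 higher (28.5% and 27.4%). In 3F the plain fit called 5 of 31 lower (27.8%), and the blocked fit 14 lower and 1 higher (31.1% and 32.6%). Without Con animal 8A, whose 3F library is the shallowest of the 96, the blocked 3F count was 16 lower and 1 higher of 32.

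In TAE the plain fit called 4 lower (26.6%), and the blocked fit 16 lower and 2 higher (31.4% and 36.0%). For HeatAllPrep the counts were 0 lower (27.8%, with 3 members at an unadjusted p under 0.05), and 12 lower and 1 higher with the block (32.6% and 32.3%). CatAllPrep gave 0 lower (21.7%, 0 at an unadjusted p under 0.05), and 9 lower and 3 higher (27.7% and 33.5%). CatPureLink gave 1 lower, Kif20a (27.1%), and 12 lower and 0 higher (32.7% and 37.0%). The blocked medians of the members were from -0.17 (CatAllPrep) to -0.43 (3F) on the log2 scale, and the medians of all genes tested were from -0.02 to 0.04.

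Scaling set part of this picture. With library totals in place of TMM factors, the median of all genes tested moved up to 0.05 (3F) to 0.31 (CatPureLink), and the blocked counts of lower and higher members changed with it. They were 5 and 1 in OH (13.7% and 37.7% of all genes), 7 and 2 in 18F (11.2% and 50.8%) and 11 and 1 in 3F (28.8% and 34.9%). In TAE they were 10 and 3 (16.9% and 55.4%) and in HeatAllPrep 5 and 3 (15.7% and 57.5%). In CatAllPrep they were 3 and 7 (13.5% and 57.5%) and in CatPureLink 3 and 7 (14.6% and 63.8%), so that the balance turned toward higher in both catalyst states. Relative to the median of all genes, the median of the members lay below in all 7 states, at -0.45 to -0.205 with TMM. A change of scaling moves all genes of a library alike, so this relative value can hardly differ with totals (-0.44 to -0.19).

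**Figure D4:**
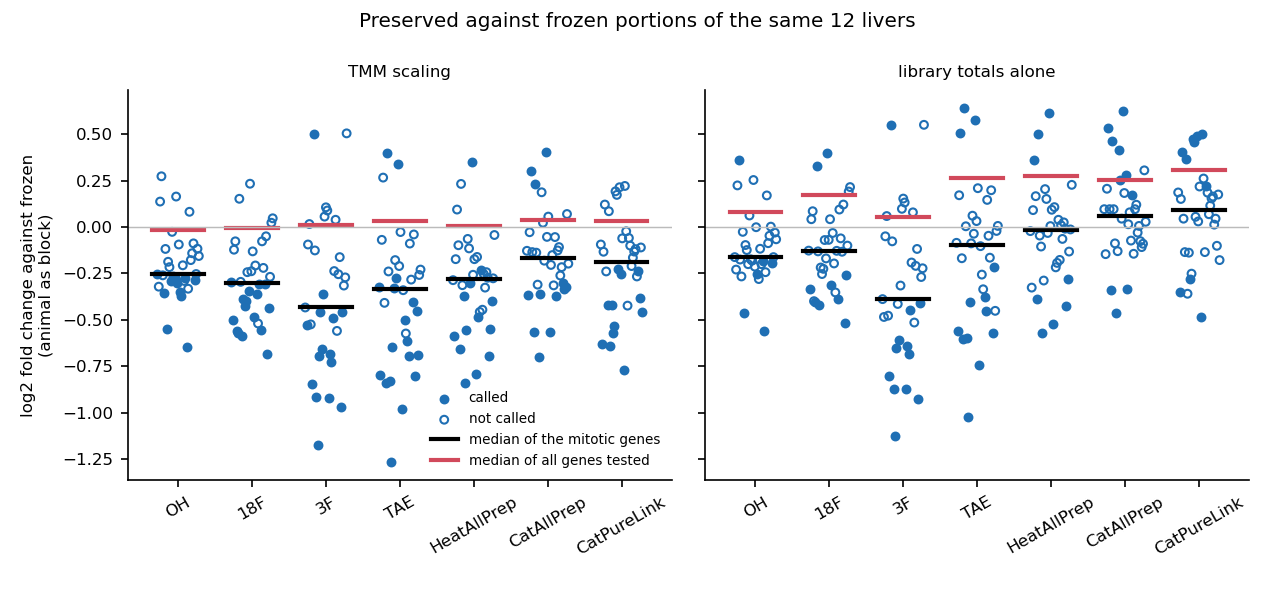
Log2 fold change of each of the 32 genes in 7 preserved states against frozen portions of the same 12 animals, with the animal as a block, under TMM scaling (left) and library totals alone (right). Filled points are called at an adjusted p of 0.05. The black bar (median of the mitotic genes) is below the red bar (median of all genes tested) in every state of both panels, and in the right panel the black bars of the 2 catalyst states are above 0.

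Single members differed in how they fared. Among the genes that passed the filter Cdc20 had the lowest blocked value in 3F, TAE, HeatAllPrep and CatAllPrep. The lowest in OH was Ncapg (-0.65), in 18F Spag5 (-0.68) and in CatPureLink Kif20a (-0.77). The mean of Cdc20 over the 12 animals was 5.12 CPM in frozen liver, 1.77 CPM in 3F and 2.02 CPM in TAE, and it was lower than frozen in 11 and 12 of 12 animals. The blocked log2 fold changes were -1.18 ± 0.22 (SE, adjusted p = 3.44e-05) in 3F and -1.27 ± 0.14 (adjusted p = 2.15e-08) in TAE. In CatAllPrep and CatPureLink it was at 2.94 and 3.23 CPM, with blocked changes of -0.70 and -0.57. Kif20a was called lower in 7 of 7 states with the block under both scalings, from -0.98 (TAE) to -0.35 (OH) with TMM. Bub1b and Cdk1 were also lower in 7 of 7 with TMM, but in 5 and 2 with library totals. Spag5 was lower in 5 states, at -0.97 in 3F, and its values of -0.09 (OH, adjusted p = 0.546) and -0.27 (CatPureLink, adjusted p = 0.073) were not called.

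Mki67 was lower in OH, 18F, 3F, TAE and HeatAllPrep, from -0.23 to -0.61 with TMM. With library totals 3 of these 5 calls remained, 18F was not called (adjusted p = 0.106) and HeatAllPrep was at 0.04. In the catalyst states it was at -0.05 (CatAllPrep, adjusted p = 0.469) and -0.06 (CatPureLink, adjusted p = 0.379), and with library totals it was called higher there, at 0.17 and 0.22. Top2a was lower in 7 of 7 with TMM, from -0.55 to -0.24, and in 5 with library totals. Ccna2 and Foxm1 went the other way. Ccna2 rose in 3F, TAE and CatAllPrep by 0.50, 0.40 and 0.23 on the log2 scale, and Foxm1 rose in TAE, HeatAllPrep and CatAllPrep by 0.34, 0.35 and 0.40. With 8A left out the 3F value of Ccna2 was 0.35 (adjusted p = 0.0302). Birc5 rose in CatAllPrep by 0.30. With library totals these 3 genes were called higher in 6, 5 and 5 of the 7 states. Aurkb, Kif11, Nusap1, Plk1, Racgap1 and Ttk were called in none of the blocked TMM fits that tested them. Melk was called in none of the 6 states where it passed the filter. In 3F it passed only with 8A left out, where it was called lower at -1.43 ± 0.44 (SE, adjusted p = 0.00676).

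Detection differed with treatment and with depth. Library totals ran from 1264563 to 18442730 counts with a median of 11913138, and 3F held the shallowest library (Con 8A) and the next (6257294 counts). In frozen liver 5 of 6 Con and 6 of 6 PB libraries had at least 1 count of all 32 genes. In 3F none of the 6 Con libraries did, and 33 of 192 combinations of Con library and gene held 0 counts. All 6 PB libraries of 3F held all 32 genes. The 3F library of Con 8A had 69 counts over the 32 genes and 18 genes with a count, and its summed CPM, 57.2, was the highest of the 6 Con values of that state. Over the 8 states PB libraries lacked a count once, for Melk in HeatAllPrep.

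At 10 counts or more, the frozen Con libraries held 15, 20.5 and 27 genes (lowest, median and highest) and the frozen PB libraries 28, 32 and 32. The 3F Con libraries held 2, 6.5 and 14 and the 3F PB libraries 20, 25.5 and 31, so that both groups lost genes. Per animal, 3F held fewer genes at 10 counts than frozen in 12 of 12 animals, by 9.58 on average (SD 6.39), and the mean losses in the other 6 states ran from 1.83 (OH) to 5.42 (HeatAllPrep). When every library was scaled down by calculation to the 1264563 counts of the shallowest, the expected number of genes with a count was 20.0 ± 2.21 in frozen Con and 29.7 ± 1.93 in frozen PB libraries (mean ± SD, n = 6). In 3F it was 17.1 ± 1.78 and 28.4 ± 2.55. The paired difference of 3F from frozen was -2.09 (SD 1.54) and negative in 12 of 12 animals. Without the library of 8A, at a depth of 6257294 counts, it was -1.23 (SD 1.74) and negative in 8 of 11 animals. At that depth the PB libraries stood near the ceiling of 32, from 31.75 in 3F and from 31.88 in frozen liver, and could show little loss. The remaining Con animals held 25.6 to 30.65 in 3F and 29.2 to 31.3 in frozen liver. At the lower depth the mean differences of the other 6 states ran from -0.81 (TAE) to 0.32 (CatPureLink). They were negative in 10 of 12 animals in OH, in 9 in 18F and TAE, in 7 in HeatAllPrep and in 6 in both catalyst states.

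**Figure D5:**
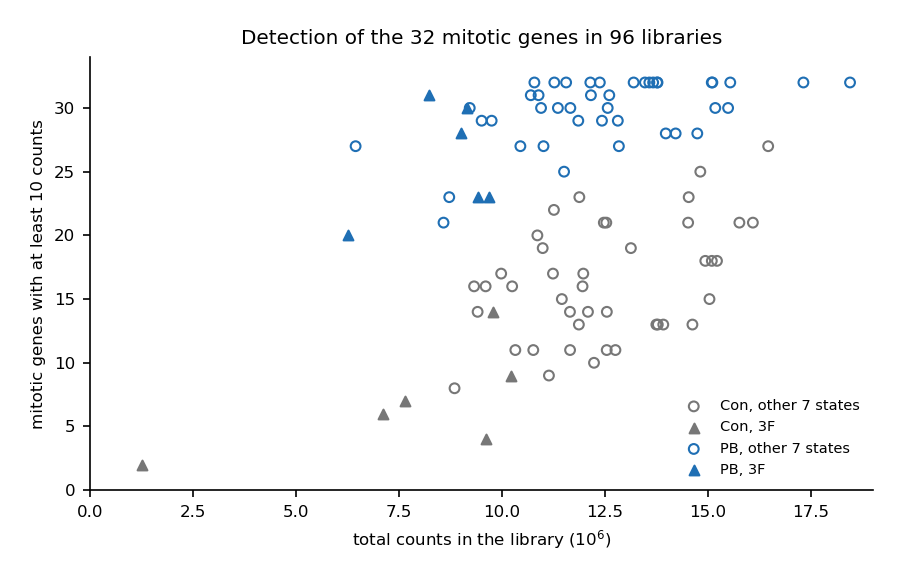
Number of the 32 genes with at least 10 counts (vertical axis) against library total on a linear axis (horizontal) for the 96 libraries, with Con in grey, PB in blue and 3F libraries as filled triangles. The 3F libraries lie toward the left, between 2 and 14 genes in Con and between 20 and 31 in PB, and most PB libraries of the other states reach 27 or more.

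The genes most often without a count were Melk, with 0 counts in 11 of 48 Con and 1 of 48 PB libraries, and Ttk, with 0 in 7 of 48 Con and 0 of 48 PB libraries. Mki67 had at least 10 counts in 96 of 96 libraries. Top2a, Ccna2 and Kif11 had at least 10 in 95 of 96. Bub1 and Ttk reached 10 counts in 0 of 48 Con libraries, and in 32 and 38 of 48 PB libraries. When counts were thinned at random to the depth of the shallowest library, only 1 or 2 of the 32 genes passed the filter in a state. Over the 8 states edgeR called 0 of these 13 combinations, and 9 had an unadjusted p under 0.05.

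Other genes of the same process were also higher in frozen PB liver. Of 72 other mitotic genes, 58 passed the filter and 31 were called higher and 0 lower, with a median log2 fold change of 1.13. Of all genes tested, 5.89% were called higher. Without 20B and 80B it was 18 of 58 (3.21% of all genes tested), with a median of 0.50. The largest were Pbk, a mitotic kinase (3.61 ± 0.60), Ckap2 (3.46 ± 0.56), the kinetochore gene Nuf2 (3.33 ± 0.66) and Ckap2l (3.03 ± 0.64). Hjurp and Zwint, the 2 with the highest levels among those not called, had log2 fold changes of 0.28 (adjusted p = 0.142) and 0.10 (adjusted p = 0.407). The summed CPM of the 72 genes was 840 in 20B and 785 in 80B, 485 to 537 in the other 4 PB animals and 393 to 445 in Con. Much of this sum came from the uncalled Hjurp and Zwint. Their means were 164.5 and 47.6 CPM in Con and 199.4 and 51.2 CPM in PB.

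The core subunits of the anaphase-promoting complex, the ligase that Cdc20 activates, moved little. Of 15 tested, Cdc27 rose by 0.20 on the log2 scale (adjusted p = 0.0303) and the others were not called, with a median of 0.12. This 1 call among 15 is near the 5.89% of all genes tested that were called higher. Cdc27 was not called when 20B and 80B were left out. Anapc1 stood at 128 ± 4.29 CPM in Con and 127 ± 3.95 CPM in PB. Of the 19 genes of the G1 list, 4 rose, namely the cyclin gene Ccne2 (log2 fold change 1.93 ± 0.22, adjusted p = 9.58e-05), E2f2 (1.21), Rbl1 (0.77) and E2f3 (0.31), and the median was 0.11. The share of all genes tested to set beside these 4 is again 5.89%. With 20B and 80B left out 2 of the 19 were called (3.21% of all genes tested). Ccne2 ran from 0.889 to 1.91 CPM in Con and from 2.97 to 5.69 CPM in PB, without overlap. Rbl2 and Cdk6, the most abundant of the uncalled, had log2 fold changes of -0.12 (adjusted p = 0.372) and -0.17 (adjusted p = 0.207).

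Several members share their position with a gene on the other strand, among them Kif20a with Cdc23, Nusap1 with Oip5, Cdc20 with Elovl1, Ccna2 with Exosc9, Ube2c with Tnnc2, Kif4 with Pdzd11 and Ncapg with Lcorl. Whether reads were counted by strand is not given here, and the counts of these members are uncertain to that extent.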

How the data were processed

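RNA was sequenced from 96 libraries of 12 animals after ribosomal RNA depletion with a strand-specific kit, per the labels. CASAVA, STAR 2.5, edgeR, GRCm38 and mm10 appear in the submitters' processing notes with no role attached. Which counter, annotation and strand option made the table is not given in the sources used here. The authors deposited raw counts per Ensembl gene, which every value here uses, and a second table of log2 values, deposited by the authors, was not used. Of 47465 lines 92 were spike-in controls with 110 counts in all and were left out. Symbols, positions and exon lengths came from GENCODE M21 on GRCm38.

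Tests used edgeR 4.0.16 in R 4.3.3 (quasi-likelihood F test, TMM scaling, default low-count filter by group, Benjamini-Hochberg over all genes tested at 0.05). Standard errors are the log2 fold change over the square root of F. PB was compared with Con in each state (6 against 6), and each preserved state with frozen over 24 libraries with treatment as covariate. An interaction fit tested each PB response against the frozen one. CPM values are TMM-scaled. Detection at equal depth is the expectation of sampling without replacement, and intervals between animals are SDs. Without molecular identifiers, reads are not independent molecules, and p-values of PB against Con within a state measure the spread between animals. Those of the blocked fits measure the spread left within animals. The plain state and interaction fits treat both libraries of an animal as independent. The computations were tested on simulated counts.

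Every animal, named in the sample titles, gave 1 library to each state. Over 13561 genes the deviations of libraries from the same animal correlated above 0.1 in 336 of 336 pairs (median 0.524, against -0.044 for other animals), so blocked values stand beside state comparisons. Alternatives were DESeq2 1.42.0, RLE scaling, library totals, no filter, thinning, the block and each animal left out. Leaving out 20B and 80B together, the block with library totals, and the block without 8A were chosen after seeing the data. The 32 genes and the gene lists were chosen with earlier results of these data known. All 32 are named, with ranges in full for Mki67, Ccnb1, Cdc20 and Plk1, the largest and smallest frozen difference and the 2 lowest levels. From other lists up to 4 called and 2 uncalled genes are named, and for interactions the 2 smallest p. RNA kits of the FR, OH, 18F, 3F and TAE libraries are not given here, so kit and state cannot be told apart.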

Additional observations from a re-analysis of the deposited data

How the results depend on the processing

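No setting called a member lower in PB than in Con. Thinning to the shallowest library left 0 calls in all 8 states, with 1 or 2 members tested in each by edgeR (9 of 13 at an unadjusted p under 0.05). Leaving out 20B and 80B gave 13 calls in 18F (14 without a filter) and 5 in 3F (6 without a filter). Leaving out each animal in turn gave 14 to 27 calls in 18F and 9 to 17 in 3F, and in the other states counts within 1.5 times of the reported one. For single genes, DESeq2 added 21 calls and ended 0 of the PB calls it could be compared with. With each animal left out in turn, a gene in a state was refitted for every animal omitted and so counts repeatedly. Over all these refits, 2428 kept the call or its absence, 211 lost a call and 22 gained a call. Without 20B and 80B the log2 fold change turned to -0.31 for Kif23 in OH (-0.31 without a filter) and to -0.19 for Spag5 in 3F without a filter.

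Against frozen, members called (lower and higher together) with the animal as a replicate block were 12 in OH, 16 in 18F, 15 in 3F, 18 in TAE, 13 in HeatAllPrep, 12 in CatAllPrep and 12 in CatPureLink. With the replicate block and library totals they were 6, 9, 12, 13, 8, 10 and 10, and 17 in 3F without 8A. The plain fit with library totals gave 0 in 18F and 2 in TAE, and thinning gave 0 in 18F, 3F, TAE and CatPureLink. With library totals the sign turned in CatPureLink for Ect2 (0.096, blocked 0.055), Hmmr (0.066, blocked 0.030) and Top2a (0.018, blocked 0.045), and in HeatAllPrep for Mki67 (0.058, blocked 0.039). Thinned, it turned for Mki67 in 18F (0.42), 3F (0.29) and HeatAllPrep (0.44) and for Top2a in OH (0.57), TAE (0.13), HeatAllPrep (0.074), CatAllPrep (0.18) and CatPureLink (0.62). None of these turned values was called, and the cause was not tested.

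At 10 counts as deposited, the difference in members detected from frozen was -1.83 in OH, -3.42 in 18F, -9.58 in 3F, -4.75 in TAE, -5.42 in HeatAllPrep, -3.00 in CatAllPrep and -2.17 in CatPureLink, where the last 2 turned from positive values at equal depth. Interactions gave 0 member calls with RLE scaling, no filter and the block. Depth limits the members too. The filter asks for enough counts in 6 libraries of either treatment, so few counts in Con alone do not remove a gene. A gene that is also low in some PB libraries can miss the filter in shallow states.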
